A study of Mus musculus with 8 samples.

Results

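The genes described here are 10 angiogenic ligands and endothelial receptors of the mouse heart, chosen by name: the ligands Vegfa, Vegfb, Pgf, Angpt1, Angpt2 and Apln, the receptors Kdr, Flt1 and Tek, and the secreted endothelial protein gene Esm1. All 10 were found among the 24062 gene symbols that the count tables of both time points share, and all 10 passed the filter on low counts that left 15508 genes for testing. Total RNA came from left ventricular free wall tissue of male C57BL/6 mice, aged 8 to 12 weeks, and was depleted of ribosomal RNA before paired-end sequencing. Myocardial infarction (MI) followed ligation of the left anterior descending artery of the heart, and ischemic tissue was taken 1 day or 3 days later. Sham-operated mice, without ligation, served as controls of their own time point. Each of the 4 groups (sham and MI at 1 day, sham and MI at 3 days) held 2 mice, and the labels name no genetic change or drug in any of them.

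Blood vessels grow when endothelial cells receive vascular endothelial growth factors (VEGFs). Vegfa acts mainly through Kdr, also called VEGF receptor 2, while Flt1, VEGF receptor 1, binds Vegfa, Vegfb and Pgf and can act as a decoy, also in a soluble form. Angpt1 activates the endothelial receptor Tek (Tie2) and keeps vessels stable, and Angpt2 often opposes it where vessels are remodelled. Apln encodes the ligand of the apelin receptor, and Apln and Esm1 are known marks of the tip cells that lead a vessel sprout. In the adult heart Vegfa and Vegfb are made largely by cardiomyocytes, whereas Kdr, Flt1 and Tek mark endothelial cells.

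The 8 libraries held 7382490 to 25041386 gene counts, with the lowest depths in the MI group of 1 day, and 3 counts equalled 0.102 to 0.369 on the counts-per-million scale (CPM). Within a group, A and B name the libraries in the order of their columns; no replicate number is attached to them. The Spearman correlation of A with B across genes was 0.954 in the MI group of 1 day and 0.981 to 0.992 in the other groups. MI library B of 1 day stood apart: 92.2% of 1470 chemosensory receptor genes had reads in it, with a mean of 5.02 counts per gene and a 99th percentile of 17.3. At 1 day the share was also high in sham library B, at 50.8%, and MI library A, at 23.5%; elsewhere it was 4.29 to 7.96%. For the 10 genes, calls and directions that changed when MI library B was left out are therefore given below. Not every result that includes this library is also given without it.

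The promoter sequences of the genes that moved together give the context of these measurements. In a RefSeq table of the build GRCm38.p6, 8 of the 10 genes had 10 start sites between them; Angpt1 and Angpt2 were not analysed at this level. Shown are the 250 bases before the first listed start of 2 genes that were higher after MI and 2 that were lower, 5′ to 3′ on the gene's own strand. For these 4 genes the window lies wholly outside the annotated gene. Capitals mark the core motifs of hypoxia response elements, ACGTG and GCGTG, searched on both strands, where they read CACGT and CACGC; the motifs do not contain one another.
Apln, chrX:48034854-48035103, - strand: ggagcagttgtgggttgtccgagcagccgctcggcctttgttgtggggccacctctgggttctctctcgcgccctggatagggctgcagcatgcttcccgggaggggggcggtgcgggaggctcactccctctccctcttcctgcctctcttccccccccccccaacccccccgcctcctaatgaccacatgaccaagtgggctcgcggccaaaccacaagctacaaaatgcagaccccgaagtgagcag
Esm1, chr13:113209409-113209658, + strand: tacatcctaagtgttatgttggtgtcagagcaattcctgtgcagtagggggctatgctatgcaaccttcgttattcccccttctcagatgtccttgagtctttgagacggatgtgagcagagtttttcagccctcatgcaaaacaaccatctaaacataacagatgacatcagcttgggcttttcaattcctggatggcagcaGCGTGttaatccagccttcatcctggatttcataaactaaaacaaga
Vegfa, chr17:46032378-46032627, - strand: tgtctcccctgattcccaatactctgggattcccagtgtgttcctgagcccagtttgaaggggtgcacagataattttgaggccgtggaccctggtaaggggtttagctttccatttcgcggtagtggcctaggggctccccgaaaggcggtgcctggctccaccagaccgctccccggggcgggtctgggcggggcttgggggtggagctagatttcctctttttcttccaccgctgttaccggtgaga
Vegfb, chr19:6987652-6987901, - strand: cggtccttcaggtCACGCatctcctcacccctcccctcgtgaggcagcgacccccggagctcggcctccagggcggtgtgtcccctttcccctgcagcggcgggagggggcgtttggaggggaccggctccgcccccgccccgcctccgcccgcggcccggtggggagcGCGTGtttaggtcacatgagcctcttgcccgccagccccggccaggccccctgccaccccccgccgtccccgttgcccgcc
One of these motifs was present before 6 of the 10 start sites, against 38.6% of 32851 promoters of the same length. ACGTG was found before 1 of the 10 and in 16.6% of all promoters, and GCGTG before 6 of the 10 and in 28.2%. Among the genes that rose, Pgf had a match 124 bases and Esm1 47 bases before the start, and the window of Apln, shown here, held neither motif. Among those that fell, Vegfb had matches at 237 and 81 bases and Kdr at 131 and 89 bases, while the Vegfa window shown held none. A match describes the letters of a window and was not tested as a binding site. A second Vegfa start had both motifs, GCGTG at 218 and ACGTG at 211 bases, but its window lies inside the annotated Vegfa gene. The windows of Pgf, Kdr and Flt1 that held a motif also lie inside their annotated genes. The motif was thus present in windows of genes of both directions. G and C made up 44.0% of the Esm1 window, 51.2% of that of Tek, 59.2% of that shown for Vegfa and 76.4% of that of Vegfb. The windows of Kdr (61.6%), Apln (65.2%), Flt1 (70.4%) and the first Pgf start (68.4%) were also above the median of all promoters, 52.4%. Both motifs contain CG, and the shares over all promoters were not matched for G and C. A second Pgf start, with 66.4%, held neither motif.

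Levels of different genes were compared as CPM per kilobase of each gene's most-read transcript. In the sham hearts of 1 day Vegfa stood highest, at 84.7 ± 10 (SD, n = 2), followed by Vegfb at 66.9 ± 3.89, Kdr at 42.6 ± 3.31 and Flt1 at 26.5 ± 5.17. Tek, at 20.1 ± 2.37, and Angpt1, at 19.0 ± 6.41, overlapped between libraries and could not be ordered. Below them came Pgf at 6.35, Apln at 3.21, Angpt2 at 1.65 and Esm1 at 0.193. The sham hearts of 3 days gave the same leading genes, with Vegfa at 108 ± 30.7, Vegfb at 57.0 ± 1.61 and Kdr at 32.6 ± 2.2.

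After MI this order was different. At 1 day Pgf had the highest mean, 109 ± 39.1 CPM per kilobase, and its libraries overlapped those of Vegfa, at 73.7 ± 34.6. Vegfb (28.9 ± 13.6) and Kdr (26.1 ± 4.52) came next and overlapped each other. At 3 days Apln had the highest mean, 26.6 ± 10.3, and each of the 6 leading genes overlapped its neighbour: Apln, Vegfa (21.7 ± 11.6), Pgf (20.8 ± 6.08), Tek (18.7 ± 1.80), Angpt2 (15.9 ± 3.26) and Kdr (15.4 ± 1.82). Vegfb, second in both sham groups, was ninth at 4.90 ± 0.723, with libraries that overlapped those of Esm1 at 3.69 ± 1.52.

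**Figure D1:**
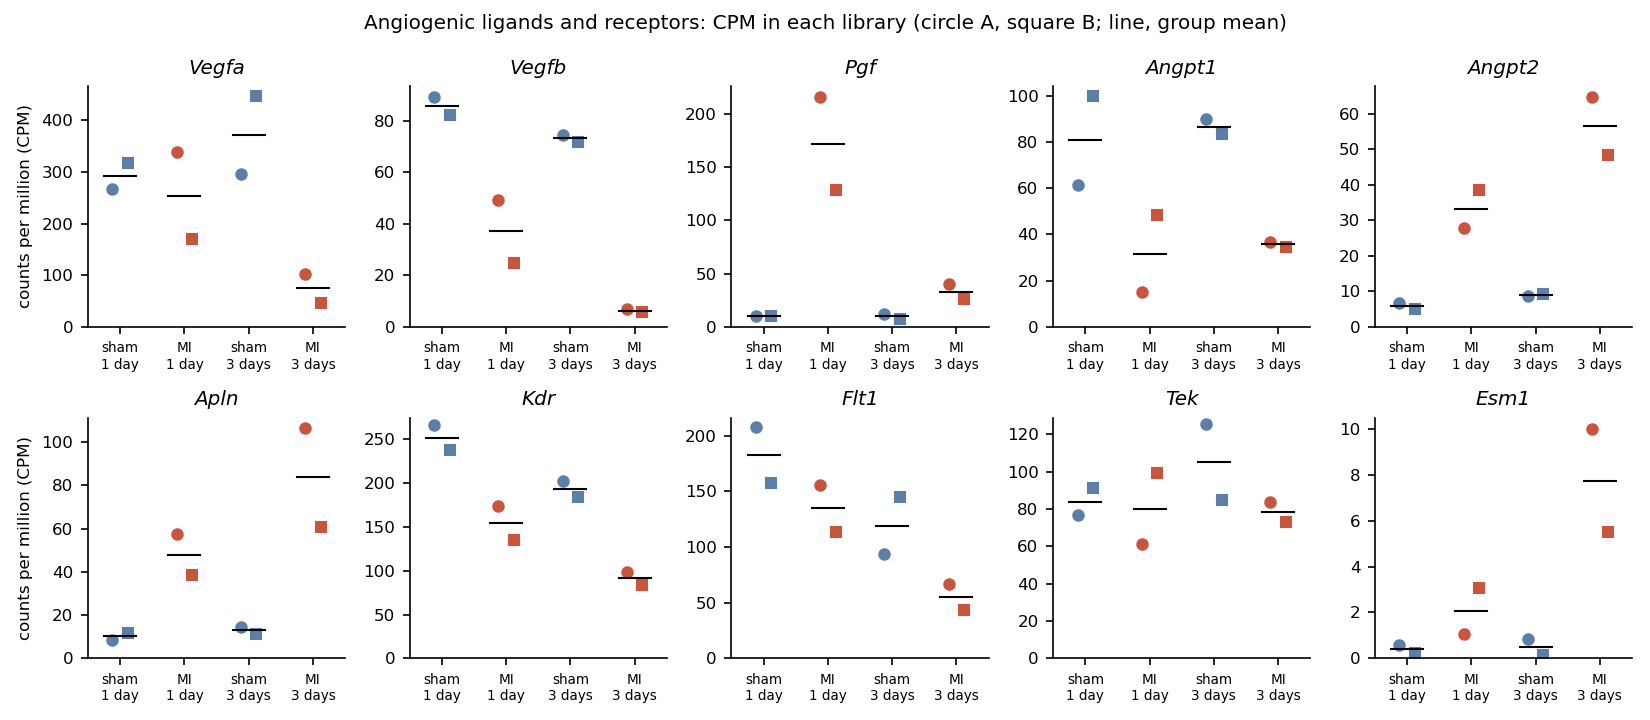
CPM of each of the 10 genes (vertical axes from 0, each with its own range) in the 8 libraries, blue for sham and red for MI, with circles for library A, squares for library B and lines for group means. Pgf peaked after MI at 1 day, Angpt2, Apln and Esm1 had their highest libraries after MI at 3 days, and Vegfa and Vegfb their lowest.

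The comparison of MI with sham at 1 day asks how these genes stood early after the coronary artery was closed. Of the 10 genes, 3 rose (Pgf, Angpt2 and Apln) and 3 fell (Vegfb, Kdr and Angpt1) by edgeR's quasi-likelihood test with Benjamini-Hochberg adjustment over all genes tested. Over all genes 19.3% rose and 19.7% fell. Vegfa, Flt1, Tek and Esm1 did not pass. At 3 days 4 of the 10 rose (Pgf, Angpt2, Apln and Esm1) and 5 fell (Vegfa, Vegfb, Kdr, Flt1 and Angpt1), against 31.7% of all genes higher and 23.7% lower. Tek alone did not pass. The falls numbered 1 at 1 day without either sham library of that day, and 3 at 3 days without library B of either group of that day. The median absolute log2 fold change of the 10 genes was 1.29 at 1 day and 2.03 at 3 days, and over all genes it was 0.75 and 0.98. In bulk tissue, fewer cells of a type and less RNA per cell cannot be told apart.

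Normalising to library size alone moved the median log2 fold change of all genes, from 0.12 to 0.40 at 1 day and from 0.16 to 0.43 at 3 days. The share of rises among all called genes then went from 49.5% to 67.9% at 1 day. Under that scaling 1 of the 10 genes, Vegfb, fell at 1 day and 4 fell at 3 days.

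Vegfa, the main VEGF ligand (chromosome 17, 46016993 to 46032377 in GRCm38.p6), stood at 268 and 317 CPM in sham libraries A and B of 1 day and at 339 and 170 CPM in the MI libraries. The MI libraries lay on either side of the sham libraries, and the log2 fold change was −0.20 (SE 0.40, adjusted p = 0.719). Without MI library B it became 0.21 (adjusted p = 0.734). At 3 days Vegfa stood at 297 and 447 CPM after sham surgery and at 103 and 46.6 CPM after MI. Both MI libraries were below both sham libraries, and Vegfa fell by 2.31 on the log2 scale (SE 0.42, adjusted p = 0.0011), 4.97 times lower; without MI library A the fall was 3.06.

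Vegfb, a ligand of Flt1 known for roles in cardiac metabolism and coronary vessels (chromosome 19, 6982472 to 6987651), stood at 89.2 and 82.2 CPM in the sham libraries of 1 day and at 49.3 and 24.6 CPM after MI. It fell by 1.19 (SE 0.28, adjusted p = 0.00879), which no longer passed when sham library A was left out (adjusted p = 0.0586) and became 1.81 without MI library A. At 3 days the sham libraries held 74.5 and 71.6 CPM and the MI libraries 6.93 and 5.62 CPM. The groups were far apart and the replicates close, and Vegfb fell by 3.55 (SE 0.31, adjusted p = 1.2e-05), or 11.7 times. It had the largest fall of the 10 genes. Markers of cardiomyocytes fell in the same libraries, 10 of 11 at 1 day and 11 of 11 at 3 days, against 19.7% and 23.7% of all genes. The markers summed to 210900 and 185000 CPM after sham surgery and 110600 and 117200 CPM after MI at 1 day. At 3 days the sums were 132500 and 195600 CPM against 9093 and 9099 CPM. Ttn was the largest part of the sum. It was the marker not called at 1 day, with group means of 79980 and 66850 CPM. The median log2 fold change of the 11 markers was −1.19 at 1 day and −4.14 at 3 days. The part of the cardiomyocyte markers in the results on Vegfa and Vegfb was not tested.

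Pgf, placental growth factor, a ligand of Flt1 (chromosome 12, 85166637 to 85177785), had 10.4 and 9.72 CPM in the sham libraries of 1 day and 216 and 128 CPM in the MI libraries. Every MI library was far above the sham range, and Pgf rose by 4.10 on the log2 scale (SE 0.36, adjusted p = 0.000129), 17.1-fold, the largest change of the 10 genes at that day. At 3 days the sham libraries held 12.4 and 7.07 CPM and the MI libraries 39.7 and 26.1 CPM. The rise was smaller, 1.75 (SE 0.35, adjusted p = 0.00187), or 3.37-fold.

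Angpt1, the ligand that activates Tek (chromosome 15, 42424667 to 42676977), stood at 61.38 and 99.97 CPM in the sham libraries of 1 day and at 14.9 and 48.5 CPM after MI. The replicates of both groups were wide apart, but the groups did not overlap, and Angpt1 fell by 1.39 (SE 0.43, adjusted p = 0.031). At 3 days it stood at 90.0 and 83.4 CPM against 36.8 and 34.5 CPM, with close replicates, and fell by 1.28 (SE 0.41, adjusted p = 0.0242). Without MI library B the fall at 1 day was 2.43 (adjusted p = 0.000874). These calls were the least stable of the ligands: leaving out sham library B or MI library A ended that of 1 day (adjusted p = 0.195 and 0.0581), and leaving out any 1 of the 4 libraries of 3 days ended the later one (adjusted p = 0.0704 to 0.104). Pericytes are a known source of Angpt1, and the summed level of 7 pericyte markers, none at 0 in any library, was 1393 to 1640 CPM in the sham libraries, 999 and 885 after MI at 1 day, and 554 and 483 after MI at 3 days. Most of the drop in this sum came from Abcc9, a potassium channel subunit that cardiomyocytes also express. Its group means were 825 and 372 CPM at 1 day and 756 and 68.3 CPM at 3 days. Pdgfrb, another of the 7 markers, had higher group means after MI, 95.5 against 75.8 CPM at 1 day and 117 against 80.6 CPM at 3 days. At 1 day Pdgfrb was not called. Of the 7 markers 2 fell at 1 day (Abcc9 and Notch3), or 1 without sham library A. At 3 days 4 fell (Abcc9, Rgs5, Kcnj8 and Notch3) and 2 rose (Pdgfrb and Anpep). Of all genes, 19.7% fell at 1 day, and 23.7% fell and 31.7% rose at 3 days. The sham and MI means of 3 days were 528 and 223 CPM for Rgs5 and 53.9 and 20.6 CPM for Kcnj8. For Notch3 they were 60 and 42.4 CPM. In 10 of the alternative fits, 6 of them without 1 library, 1 marker rose at 3 days. The part of these markers in the result on Angpt1 was not tested.

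Angpt2, the context-dependent antagonist of Tek (chromosome 8, 18690263 to 18741562), had 6.61 and 5.12 CPM in the sham libraries of 1 day and 27.8 and 38.4 CPM after MI. It rose by 2.49 (SE 0.27, adjusted p = 0.000278). At 3 days the values were 8.66 and 9.35 CPM after sham surgery and 64.8 and 48.4 CPM after MI, a rise of 2.65 (SE 0.25, adjusted p = 2.04e-05), or 6.27-fold. All 4 MI libraries lay above all 4 sham libraries.

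Apln, the apelin gene (chromosome X, 48025146 to 48034853), had 8.69 and 11.5 CPM in the sham libraries of 1 day and 57.4 and 38.4 CPM after MI. It rose by 2.26 (SE 0.34, adjusted p = 0.00103). At 3 days it had 14.4 and 11.4 CPM after sham surgery and 106 and 60.8 CPM after MI, and it rose by 2.70 (SE 0.32, adjusted p = 8.24e-05), or 6.49-fold. As for Angpt2, no MI library overlapped a sham library of either day.

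**Figure D2:**
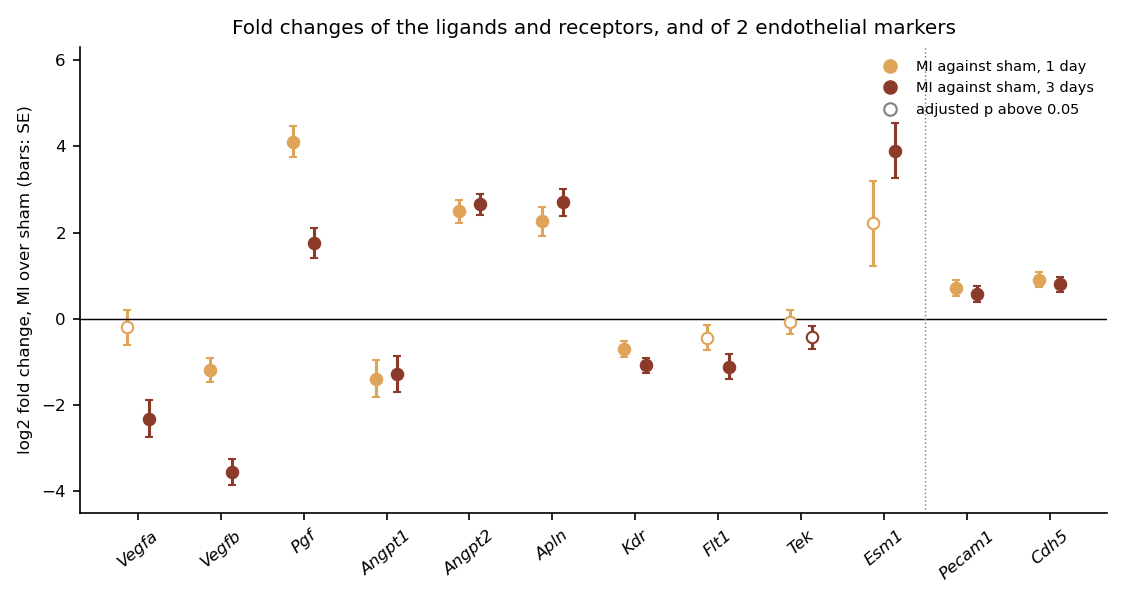
Log2 fold change of MI over sham (vertical axis, bars show the SE of the fit) for the 10 genes and the endothelial markers Pecam1 and Cdh5, at 1 day (yellow) and 3 days (brown), with open symbols where the adjusted p was above the threshold of 0.05. Kdr and Flt1 lie below 0 where Pecam1 and Cdh5 lie above it, and Pgf, Vegfa and Vegfb have lower values at 3 days than at 1 day. Pecam1 and Cdh5 belong to a list of 25 endothelial markers, of which 14 at 1 day and 17 at 3 days were not called. From the same list, Sox18 fell at 1 day and Ptprb at 3 days.

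Among the receptors, Kdr, the main signalling receptor of Vegfa (chromosome 5, 75932827 to 75979072), stood at 266 and 238 CPM in the sham libraries of 1 day and at 174 and 136 CPM after MI. It fell by 0.70 (SE 0.18, adjusted p = 0.0149). That call needed both sham libraries, with an adjusted p of 0.105 when A was left out and 0.0525 when B was. At 3 days Kdr stood at 202 and 184 CPM after sham surgery and at 99.1 and 83.9 CPM after MI, and it fell by 1.08 (SE 0.18, adjusted p = 0.000798), or 2.11 times.

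Flt1 (chromosome 5, 147561604 to 147726438) had 208 and 158 CPM in the sham libraries of 1 day and 156 and 114 CPM after MI. The higher MI library lay just under the lower sham library, and the log2 fold change of −0.44 did not pass (SE 0.29, adjusted p = 0.246). At 3 days it had 93.4 and 145 CPM after sham surgery and 66.8 and 43.8 CPM after MI. Flt1 fell by 1.11 (SE 0.29, adjusted p = 0.00873), but not when the B library of the sham group (adjusted p = 0.0863) or of the MI group (0.0696) was left out.

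Tek (chromosome 4, 94739086 to 94874976) changed least of the 10 genes. Its levels were 77.0 and 91.0 CPM after sham surgery and 61.2 and 99.3 CPM after MI at 1 day, and the groups overlapped (log2 fold change −0.07, SE 0.27, adjusted p = 0.845). At 3 days they were 126 and 84.6 CPM against 83.5 and 72.9 CPM. Both MI libraries were below the sham libraries, but the log2 fold change of −0.43 did not pass (SE 0.26, adjusted p = 0.192). It passed where the 4 libraries of 3 days were fitted alone (−0.65, adjusted p = 0.0317), and in the authors' deposited table Tek stood at −0.60 with an adjusted p of 0.0411.

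Esm1, which encodes the secreted proteoglycan endocan (chromosome 13, 113209659 to 113218104), was close to the detection limit in the sham hearts. It had 10 and 4 counts (0.580 and 0.230 CPM) in the sham libraries of 1 day and 13 and 25 counts (1.06 and 3.08 CPM) after MI. The difference of 2.21 on the log2 scale did not pass (SE 0.99, adjusted p = 0.104). The higher of these MI values came from library B, where chemosensory receptor genes had a mean of 5.02 counts, and without that library the log2 fold change was 1.37 (adjusted p = 0.399). At 3 days Esm1 had 16 and 3 counts (0.856 and 0.159 CPM) after sham surgery and 244 and 161 counts (10 and 5.48 CPM) after MI. It rose by 3.90 (SE 0.64, adjusted p = 0.000607), 15-fold, the largest rise of the 10 genes at 3 days. The size of this rise rests on few sham counts: it was 5.53 without sham library A (adjusted p = 0.00283), whose absence leaves 3 counts, and 3.15 without sham library B (adjusted p = 0.00943).

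Whether the response to MI differed between the days was tested with the interaction of surgery and day. Of the 10 genes 3 passed, all toward lower values at 3 days, against 24.5% of all genes in either direction. The difference was −2.12 for Vegfa (SE 0.57, adjusted p = 0.0245), −2.35 for Vegfb (SE 0.41, adjusted p = 0.00343) and −2.34 for Pgf (SE 0.49, adjusted p = 0.00807). The difference for Vegfa was the least stable: leaving out a library of 1 day gave an adjusted p of 0.0958 (sham A), 0.0792 (sham B) or 0.0553 (MI A), and leaving out a B library of 3 days gave 0.0997 (sham) or 0.0916 (MI), while without MI library A of 3 days the difference grew to −2.76. Angpt1, at 0.10, did not pass (SE 0.59, adjusted p = 0.922), but it reached 1.15 without MI library B of 1 day (adjusted p = 0.0441). For Angpt2 (0.16, SE 0.37) and Apln (0.44, SE 0.46), the rises of the days were not told apart, with adjusted p of 0.784 and 0.515. For Esm1 the difference was 1.70 with an SE of 1.38 (adjusted p = 0.402).

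Within the MI groups, 5 of the 10 genes were lower at 3 days than at 1 day, against 22% of all genes, and 2 were higher, against 23.4%. The lower genes were Vegfa (−1.77), Vegfb (−2.58), Pgf (−2.39), Kdr (−0.76) and Flt1 (−1.29), with adjusted p of 0.000171 to 0.00837. Angpt2 was higher by 0.78 (SE 0.23, adjusted p = 0.0217) and Esm1 by 2.02 (SE 0.58, adjusted p = 0.0185). Apln, at 0.79, just missed the threshold (SE 0.30, adjusted p = 0.0549). Without MI library B of 3 days only 2 of the 5 lower genes passed, and without MI library A of 1 day or of 3 days neither of the higher genes did. The value of Vegfa became −2.46 without MI library A of 3 days, and that of Esm1 2.86 without MI library B of 1 day. Angpt1 showed no called difference (0.21, SE 0.43, adjusted p = 0.72), but was higher by 1.25 without MI library B of 1 day (adjusted p = 0.00954). Between the sham groups of the days, 0 of the 10 genes passed by edgeR, DESeq2 or limma-voom, and 0 had an unadjusted p under 0.05. Over all genes edgeR called 0% of them there, although 7.81% had an unadjusted p under 0.05, and DESeq2 called 44 genes.

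Ratios of counts within a library need no normalisation. Angpt2 to Angpt1 was 0.108 and 0.0512 in the sham libraries of 1 day and 1.86 and 0.792 in the MI libraries. At 3 days it was 0.0963 and 0.112 against 1.76 and 1.40. In every sham library there were thus fewer counts of Angpt2 than of Angpt1, and in 3 of the 4 MI libraries there were more. Pgf to Vegfa was 0.0387 and 0.0307 in sham and 0.636 and 0.754 in MI libraries of 1 day, and 0.0418 and 0.0158 against 0.385 and 0.561 at 3 days. In this ratio, too, every MI library exceeded every sham library. Both ligands themselves were lower at 3 days than at 1 day after MI. Flt1 to Kdr was 0.782 and 0.662 without infarction and 0.896 and 0.839 with it at 1 day, where the MI libraries were the higher ones. At 3 days it was 0.461 and 0.788 against 0.674 and 0.522, and the groups overlapped. With 2 libraries against 2, an exact permutation test cannot reach 0.05, and no test was made of these ratios.

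**Figure D3:**
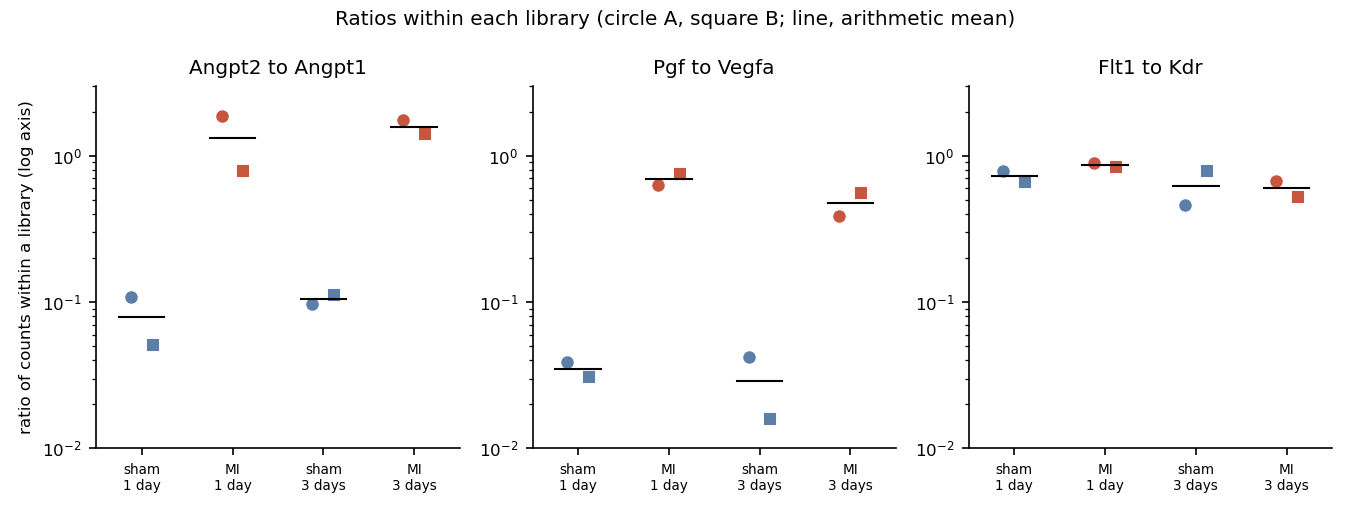
Ratio of counts of Angpt2 to Angpt1, Pgf to Vegfa and Flt1 to Kdr within each library (logarithmic vertical axis), with circles for library A, squares for library B and lines for arithmetic means. The first and second ratios were higher in all 4 MI libraries than in any sham library, and Flt1 to Kdr was higher in both MI libraries at 1 day and overlapped at 3 days.

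Endothelial cells were represented by 25 other endothelial genes, all detected in all libraries. Of these, 10 rose and 1 fell (Sox18) at 1 day, and 7 rose and 1 fell (Ptprb) at 3 days, with median log2 fold changes of 0.65 and 0.16. The other 14 at 1 day and 17 at 3 days were not called. Ptprb had group means of 110 CPM after MI against 245 CPM at 3 days, and Sox18 13.6 against 31.4 CPM at 1 day. Over all genes 19.3% rose at 1 day and 31.7% at 3 days. Pecam1, an adhesion protein of endothelial junctions, stood at 267 and 226 CPM after sham surgery and 366 and 448 CPM after MI at 1 day, a rise of 0.72 (SE 0.19, adjusted p = 0.0145), and rose by 0.57 at 3 days (SE 0.19, adjusted p = 0.0271). Cdh5, the cadherin of endothelial cells, rose by 0.91 (SE 0.18, adjusted p = 0.00379) at 1 day and 0.80 (SE 0.18, adjusted p = 0.00373) at 3 days. The counts of rising markers were 6 without either sham library of 1 day, and 3 at 3 days without MI library A of that day, and 11 at 3 days with library size alone. The single fall at 1 day did not pass without either sham library or MI library B of that day, and the falls numbered 3 without MI library A and 2 without either sham library of 3 days. At 3 days they numbered 3 without MI library A of 1 day and 2 without sham library B. The call on Pecam1 at 1 day ended when a sham library was left out (adjusted p = 0.0506 for A and 0.12 for B), when both B libraries were (0.16) and when the day was fitted alone (0.0706). That of 3 days ended with RLE factors (0.0776), by DESeq2 (0.0711), with the day fitted alone (0.0865), and when any library of that day (0.052 to 0.27) or MI library A of 1 day (0.0667) was left out, and the call on Cdh5 at 3 days ended without MI library A of that day (0.0687).

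Receptor counts were also set against the counts of these markers. Kdr had 115 and 109 counts per 1000 summed marker counts in the sham libraries of 1 day and 46.1 and 44.5 after MI. At 3 days it had 79.8 and 84.3 against 31.7 and 34.5, so that no MI library came near the sham range. Flt1 had 90.0 and 71.9 against 41.3 and 37.3 at 1 day, and 36.8 and 66.4 against 21.3 and 18.0 at 3 days. Tek had 33.3 and 41.5 against 16.2 and 32.6 at 1 day, and 49.6 and 38.8 against 26.7 and 29.9 at 3 days, below the sham libraries at both days. Angpt2, which endothelial cells themselves secrete, went the other way, with 2.86 and 2.33 against 7.39 and 12.6 at 1 day and 3.42 and 4.29 against 20.7 and 19.9 at 3 days. Fabp4, which adipocytes also express, was the largest part of the marker sum. The sum itself was 3765 and 3049 CPM after MI against 2311 and 2193 CPM at 1 day. At 3 days it was 3131 and 2435 against 2536 and 2182 CPM. A higher divisor alone lowers a ratio, and at 1 day the CPM of Tek overlapped between the groups. Cdh5 also rose after MI at both days. With Cdh5 alone as the divisor the order was the same: Kdr to Cdh5 was 1.40 to 1.51 in the 4 sham libraries and 0.384 to 0.522 in the 4 MI libraries, and Tek to Cdh5 was 0.434 to 0.870 against 0.184 to 0.354. These ratios are descriptions and were not tested. Neutrophil markers also rose after MI, 6 of 6 at 1 day and 5 of 6 at 3 days, against 19.3% and 31.7% of all genes. Their sum was 1940 and 951.5 CPM after MI against 199 and 144.6 CPM at 1 day. At 3 days it was 810.6 and 435.9 CPM against 208.7 and 105.2 CPM. The part of these cells in the levels of Pecam1 and the other endothelial markers was not tested.

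**Figure D4:**
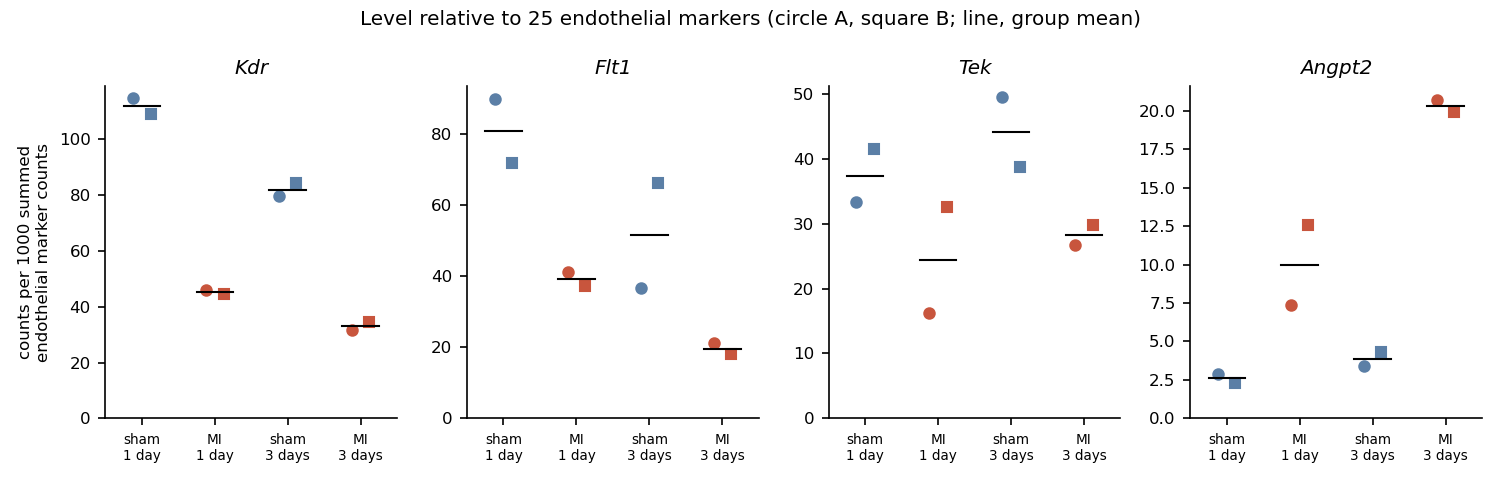
Counts of Kdr, Flt1, Tek and Angpt2 per 1000 summed counts of 25 endothelial markers in each library (vertical axes from 0), with circles for library A, squares for library B and lines for group means. At each day Kdr, Flt1 and Tek were lower in both MI libraries than in both sham libraries of that day, and Angpt2 was higher.

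The transcript tables, which hold reads per annotated transcript, allowed the same comparison below the level of the gene. In these tables the libraries are also named by column order, so that A and B of the sham group at 1 day are matched to the count table by order alone. Of 32 transcripts of the 10 genes 27 were tested. At 1 day 3 were higher and 2 lower, against 14.2% of all transcripts called in either direction. At 3 days 4 were higher and 13 lower, against 29.2% in either direction. Most of these 13 were transcripts of Vegfa, and the others were of Vegfb, Kdr and Flt1. Transcripts of the same gene are not independent in this count. The lower ones at 1 day were Vegfb-002 (−1.34, SE 0.39, adjusted p = 0.0413) and a Vegfa transcript of 640 bases. The latter had 102 and 111 reads after sham surgery and 15 and 10 after MI (−2.32, SE 0.47, adjusted p = 0.00851). Without sham library B of 1 day neither of the 2 lower transcripts of that day passed, and 1 passed when sham library A, or an MI library of 3 days, was left out. At 3 days leaving out sham library B gave 7 lower transcripts, MI library B gave 5, and MI library A gave 2 higher ones.

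Vegfa-001, the most-read Vegfa transcript, had 952 and 947 reads in the sham libraries and 1027 and 302 after MI at 1 day, and 1165 and 1636 against 480 and 246 at 3 days. It fell at 3 days by 2.41 on the log2 scale (SE 0.44, adjusted p = 0.00153). Vegfa-003 also fell at 3 days, by 2.31 (SE 0.66, adjusted p = 0.0212), but not when sham library A (0.156) or MI library B (0.0992) was left out, whereas Vegfa-204 stood at −0.91 and did not pass (SE 0.50, adjusted p = 0.197). Both protein-coding Vegfb transcripts fell at 3 days, Vegfb-001 by 3.46 (SE 0.45, adjusted p = 0.000155) and Vegfb-002 by 3.55 (SE 0.43, adjusted p = 9.91e-05). Esm1 had only 5 and 0 transcript reads in the sham libraries of 1 day, 6 and 0 after MI, and 11 and 1 against 77 and 51 at 3 days. MI library B of 1 day, with 25 Esm1 counts in the gene table, thus had 0 in the transcript table.

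Flt1 has a full-length transcript, Flt1-001, with a coding sequence of 1333 residues in the gencode annotation vM1, and a shorter one, Flt1-002, of 688 residues; a soluble Flt1 that lacks the kinase is known. Of the reads of both, Flt1-002 took 18.9% (95% exact Clopper-Pearson interval 17.2 to 20.7) and 27.7% (25.6 to 29.9) in the sham libraries of 1 day. After MI at 1 day it took 46.1% (43.2 to 49.0) and 40.4% (36.4 to 44.6), above both sham libraries. At 3 days the sham libraries gave 31.6% (29.0 to 34.4) and 44.4% (41.9 to 47.0), and the MI libraries lay between these, at 37.9% (35.1 to 40.8) and 40.2% (36.7 to 43.7). The spread between sham libraries was larger than the intervals, which cover counting error alone. By the edgeR test neither transcript passed at 1 day. Flt1-002 stood at 0.56 (SE 0.36, adjusted p = 0.323) and Flt1-001 at −0.82 (SE 0.30, adjusted p = 0.0901). The difference between the days for Flt1-002, −1.49, did not pass either (SE 0.51, adjusted p = 0.106). The share itself was not tested. The labels and headers do not say how reads common to both transcripts were assigned.

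**Figure D5:**
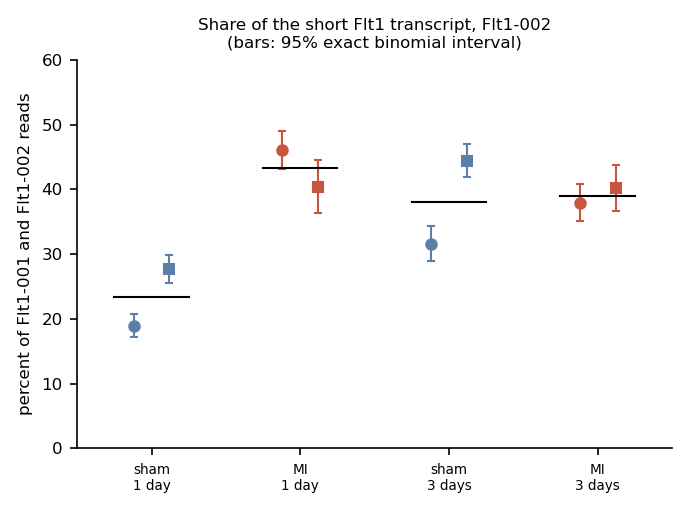
Share of Flt1-002 among the reads of Flt1-001 and Flt1-002 (vertical axis, percent) in each library, with 95% exact binomial intervals and lines for group means. At 1 day both MI libraries (46.1 and 40.4%) lie above both sham libraries (18.9 and 27.7%), and at 3 days the groups overlap. Neither transcript was called at 1 day.

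Among the 5 other VEGF ligands and receptors of the tables, 1 fell at 1 day and 3 rose at 3 days. For this list and each list below, the shares over all genes were 19.3% higher and 19.7% lower at 1 day. At 3 days they were 31.7% higher and 23.7% lower. Nrp1, a co-receptor of Kdr, fell by 0.54 at 1 day (SE 0.17, adjusted p = 0.0321), which depended on sham library A (0.0706 without it), sham library B (0.203) and MI library A (0.0513). It did not pass with library size alone (−0.24, adjusted p = 0.346), where 2 genes of the list rose instead, without both B libraries (0.0741) or with the day fitted alone (0.0645), and 1 gene rose without MI library B. Nrp2, the co-receptor more tied to lymphatic vessels, rose by 1.23 at 3 days (SE 0.17, adjusted p = 0.000176). Figf, the symbol of Vegfd in the tables, rose by 1.41 at 3 days (SE 0.40, adjusted p = 0.0136), which depended on the B library of both groups (0.0989 without sham B and 0.147 without MI B). When either of these was left out, 1 gene of the list rose at 3 days, as also by DESeq2 (0.0678 for Figf) and with the legacy option (0.0557). Without MI library A of 1 day, or with the day fitted alone, 1 gene fell at 3 days.

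Of 13 genes of VEGF receptor signalling, 4 rose and 1 fell at 1 day, and 2 rose and 5 fell at 3 days. The feedback inhibitor Spry4 rose at 1 day by 2.27 (SE 0.43, adjusted p = 0.00335), or by 1.62 without MI library A. Spry2, of the same family, rose by 1.61 (SE 0.49, adjusted p = 0.0281), but not when a sham library (adjusted p = 0.126 for A and 0.131 for B) or MI library A (0.275) was left out. The list had 2 rises at 1 day without sham library B, and its single fall became 3 without MI library A and did not pass without either sham library, MI library B, either sham library of 3 days or MI library B of 3 days. At 3 days Prkcb, a kinase downstream of phospholipase C, rose by 1.65 (SE 0.27, adjusted p = 0.000659) and Mapkapk2, a kinase of the p38 pathway, fell by 1.52 (SE 0.27, adjusted p = 0.00108). The number of falls at 3 days was 2 without MI library A or B and 3 without sham library A or B.

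In the angiopoietin and apelin pathways, 1 of 8 tested genes rose at 1 day, and 2 rose and 3 fell at 3 days. Dok2, an adaptor that binds activated Tek and is also expressed in blood cells, rose by 1.32 at 1 day (SE 0.40, adjusted p = 0.0278) and 2.36 at 3 days (SE 0.35, adjusted p = 0.000315), and the earlier call did not hold when either sham library or MI library A of 1 day, or an MI library of 3 days, was left out (adjusted p = 0.0551 to 0.202). Without MI library B of 3 days, 1 gene of the list fell at that day. Aplnr, the apelin receptor, was the other gene that rose at 3 days. It was added after its values were seen, as the receptor of Apln: it had 24.1 and 11.2 CPM after sham surgery and 55.7 and 58.9 CPM after MI at 3 days (log2 fold change 1.70, SE 0.31, adjusted p = 0.00127), and 10.3 and 14.03 against 6.73 and 5.66 CPM at 1 day (−0.95, SE 0.40, adjusted p = 0.0859).

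Of 12 Notch ligands, receptors and targets, 1 rose and 1 fell at 1 day, and 2 rose and 2 fell at 3 days. These shares were below those of all genes, 19.3% higher and 19.7% lower at 1 day and 31.7% and 23.7% at 3 days. Lfng, a glycosyltransferase that modifies Notch receptors, rose by 1.34 at 1 day (SE 0.30, adjusted p = 0.00754; 0.069 without sham library A) and by 2.19 at 3 days (SE 0.30, adjusted p = 0.00018). Hey1, a Notch target, fell by 1.24 at 1 day (SE 0.25, adjusted p = 0.00476), and Jag2, a Notch ligand, fell by 1.76 at 3 days (SE 0.40, adjusted p = 0.00401). The list had 2 rises at 1 day without MI library B, 3 rises with library size alone, 2 falls by DESeq2 and 3 falls without MI library A. At 3 days it had 1 rise without MI library A of that day, 4 rises with library size alone, and 4 falls without MI library A of 1 day or with the day fitted alone.

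Of 16 tip cell genes other than Apln and Esm1, 5 rose and 1 fell at 1 day, and 9 rose and 1 fell at 3 days. Kcne3, a potassium channel subunit, was at 0.374 and 0.159 CPM in the sham libraries and at 10.8 and 5.11 CPM in the MI libraries of 3 days, a rise of 4.85 (SE 0.75, adjusted p = 0.00026), or of 4.16 without MI library A and 5.57 without sham library A. Its rise at 1 day, 3.48, rested on levels near the limit of detection (SE 1.20, adjusted p = 0.0403) and did not pass without either sham library of 1 day (0.199 and 0.109) or 3 days (0.0603 and 0.0604) or without MI library B of 1 day (0.267), nor without the filter (0.051), by limma-voom (0.112), without both B libraries (0.241) or with the day fitted alone (0.0633). Adm, the vasodilator adrenomedullin, rose by 2.74 at 1 day (SE 0.41, adjusted p = 0.00105), or by 2.06 without MI library A, and Cxcr4, a chemokine receptor that leukocytes also carry, by 3.51 at 3 days (SE 0.27, adjusted p = 5.76e-06). The number of rises at 1 day was 3 without either sham library of that day, without the filter, by limma-voom and with the day fitted alone, and 10 with library size alone, and the number of falls 2 without MI library A. Of 10 macrophage markers 9 rose at 3 days. Their summed levels were 7692 and 7790 CPM after MI against 1914 and 992 CPM after sham surgery. The part of these markers in the results on Cxcr4 and Prkcb was not tested.

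Of 20 hypoxia sensors and targets, 8 rose and 6 fell at 1 day, and 6 rose and 8 fell at 3 days. All genes also moved both ways, with 19.3% higher and 19.7% lower at 1 day, and 31.7% and 23.7% at 3 days. At 1 day Pfkfb3, a regulator of glycolysis, rose by 2.97 (SE 0.31, adjusted p = 0.000213) and Slc2a1, a glucose transporter, by 2.94 (SE 0.41, adjusted p = 0.000751), or by 2.14 without MI library A. At 3 days Vldlr, a lipoprotein receptor, fell by 3.95 (SE 0.19, adjusted p = 1.26e-06) and Egln1, a prolyl hydroxylase that marks HIF for degradation, by 3.01 (SE 0.29, adjusted p = 2.43e-05). The rises of 1 day were 5 without either sham library of that day, and the falls 3 without sham library A. The rises of 3 days were 3 when sham library B was left out and 2 when MI library A was, and the falls 5 without sham library B or MI library B.

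Of 15 other angiogenic ligands 7 rose at 1 day, and at 3 days 7 rose and 1 fell. Angptl4, an angiopoietin-like protein induced by hypoxia and fasting, rose by 4.47 at 1 day (SE 0.28, adjusted p = 3.96e-05), and Hbegf, an epidermal growth factor, by 3.4 (SE 0.39, adjusted p = 0.00035), or by 2.66 without MI library A. At 3 days Ptn, pleiotrophin, rose by 4.11 (SE 0.27, adjusted p = 3.12e-06) and Hgf, hepatocyte growth factor, by 3.63 (SE 0.30, adjusted p = 8.52e-06). Without sham library B 4 ligands rose at 1 day, and without MI library B of 1 day, which shares the fit, or with library size alone, 11 rose at 3 days. Without MI library A 2 ligands fell at 1 day. Of 12 inhibitors of angiogenesis 4 rose at 1 day, or 7 by DESeq2 and with library size alone, and 10 rose at 3 days. DESeq2, and edgeR without MI library A of 1 day or either sham library of 3 days, called 1 of them lower at 1 day. Fibroblast markers rose in the same libraries at 3 days, 6 of 10, and 1 fell, with summed levels of 15370 and 15450 CPM after MI against 7558 and 3766 CPM in the sham libraries, and none was at 0. At 1 day 1 rose and 5 fell, or 3 fell without either sham library or MI library B, with sums of 3021 and 2366 against 4668 and 5164 CPM. Their part in the result on the inhibitors was not tested. Thbs1, thrombospondin 1, had 147 and 57.0 CPM after sham surgery and 2647 and 1354 CPM after MI at 1 day, a rise of 4.30 (SE 0.48, adjusted p = 0.000291) or of 5.13 without sham library A, and it rose by 3.86 at 3 days (SE 0.47, adjusted p = 9.13e-05). Cxcl10, an interferon-induced chemokine that restrains vessel growth, rose at 1 day (adjusted p = 8.54e-05) from 0.174 and 0.0575 CPM, at or under 3 counts, to 8.68 and 8.12 CPM, and by 4.09 at 3 days (SE 0.31, adjusted p = 2.49e-06).

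As a description, the log2 CPM of the 10 genes over the 8 libraries was correlated (Pearson, n = 8, with groups and days mixed). Vegfb went with Kdr (0.97), Vegfa (0.93) and Flt1 (0.88), and Angpt2 with Apln (0.96) and Esm1 (0.91). Across these sets the correlations were negative, such as −0.92 for Kdr with Angpt2 and −0.92 for Vegfb with Esm1. Tek was highest with Angpt1 (0.74). Over all genes with at least 5 CPM, the closest to Vegfa were Ablim3 (0.974), Btnl9 (0.971) and Vamp2 (0.970). Those closest to Kdr were Bsg (0.994), Chchd2 (0.992) and Ndufa11 (0.992), and those closest to Esm1 were Eif5a2 (0.993), Zdhhc13 (0.989) and Polr3f (0.988).

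The authors' deposited tables, which rest on the same libraries and have the opposite sign at 3 days, sham over MI, hold each of the 10 genes. The authors' deposited table of 1 day gives 3.88 for Pgf, 2.28 for Angpt2 and 2.08 for Apln. With its sign turned to MI over sham, the authors' deposited table of 3 days gives −2.43 for Vegfa, −3.69 for Vegfb, −1.25 for Kdr and 3.52 for Esm1. Each of the 10 genes had the same sign in the authors' deposited tables as in the edgeR fit at both days, and 1 of the 20 calls differed, that on Tek at 3 days.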

How the data were processed

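Total RNA of the left ventricular free wall was sequenced in 8 libraries, 2 mice per group. The submitters' processing notes name the build mm10 and, without saying what each did, TopHat2 2.0.14, Bowtie2 2.2.5, HTSeq, SAMtools 0.1.2, DESeq2 and FastQC. No label or header names the annotation release or the strand setting. The deposited raw counts per gene symbol are whole numbers, 1 table per day, and the columns name the group but no replicate. The transcript tables deposited by the authors hold total reads per Ensembl transcript (counts, 8.55 × 10⁶ to 13.27 × 10⁶ per library). The authors' DESeq2 tables, per the file headers, hold a log2 fold change, its standard error and an adjusted p-value; their sign equalled MI over sham in 97.9% of genes at 1 day and 5.1% at 3 days.

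Counts were filtered with filterByExpr over the 4 groups, which left 8554 genes untested, and scaled by TMM. One model with a term per group was fitted to all libraries with the quasi-likelihood method of edgeR 4.0.16 (R 4.3.3; robust estimation, no legacy option, 4 residual and a median of 5.51 prior degrees of freedom), with 2-sided F tests and Benjamini-Hochberg adjustment over all genes at 0.05. The legacy option was settled after fits with it on and off had been seen. The SE is the log2 fold change divided by the square root of F. CPM use TMM-scaled library sizes, and correlations use log2 CPM with a prior count of 2. Transcripts were fitted alike with the factors of the gene counts. The 10 genes and all gene lists were chosen with earlier results of these data known. Genes named from each pathway list were up to 2 called genes with the largest change per day and a mean of at least 1 CPM. One gene that this rule picks is not reported here. Alternatives were RLE factors, library size alone, no filter, the legacy option, DESeq2 1.42.0, limma-voom 3.58.1, each library left out, both B libraries of 1 day left out, and each day fitted alone. Gene positions and promoters are from RefSeq tables of GRCm38.p6, the assembly of mm10; names and coding lengths of transcripts were matched by ID to gencode vM1, of another build. The listed genes Adgre1 and Ly6g, and Vegfd under that symbol, were not analysed here.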

Additional observations from a re-analysis of the deposited data

Results flagged for a closer look

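The effect of MI differed between 3 days and 1 day, by the interaction term of the edgeR fit, for 3 of the 10 genes. For Vegfa the difference of the log2 fold changes was −2.12 (−2.31 at 3 days and −0.20 at 1 day), and it was negative in each of the 15 alternative fits. For Vegfb the difference was −2.35, between −3.55 and −1.19. For Pgf it was −2.34, with a rise of 1.75 at 3 days against 4.10 at 1 day.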

How the results depend on the processing

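No paired analysis was possible because the count columns carry no replicate number. For single genes, the direction and the side of the threshold were kept in 143 of 160 alternative values at 1 day, 151 of 160 at 3 days, 136 of 150 for the difference between days and 129 of 150 within MI. The edgeR legacy option was added after the data had been seen, and a fit to unique reads per transcript was not run. With library size alone 1 gene fell at 1 day, and within MI 1 gene was higher at 3 days by DESeq2 or with the legacy option. Leaving out 1 library at a time gave 1 to 3 falls at 1 day, 3 to 6 falls at 3 days, 0 to 1 higher values in the difference, and within MI 0 to 3 higher and 2 to 5 lower genes; by transcript it gave 0 to 2 falls at 1 day, and 2 to 4 rises and 5 to 14 falls at 3 days. The directions that turned belonged to values that had not passed. At 1 day they were those of Vegfa (0.06 with library size alone, 0.34 without both B libraries of 1 day, −0.80 to 0.21 leaving out 1 library) and Tek (0.23 with library size alone, −0.46 to 0.23 leaving out 1 library). In the difference they were those of Angpt1 (−0.02 by DESeq2, −0.76 to 1.15 leaving out 1 library), Apln (−0.03 without both B libraries of 1 day), Angpt2 (−0.27 to 0.40) and Tek (−0.88 to 0.03), the last pair leaving out 1 library. Within MI they were those of Tek (0.12 with library size alone, 0.13 without the filter, 0.02 by limma-voom, 0.35 without both B libraries of 1 day, −0.51 to 0.35 leaving out 1 library) and Angpt1 (−0.61 to 1.25 leaving out 1 library). The cause of these changes was not tested, and fits without a library rest on fewer samples, with the lone sample of a group assumed to vary like the others. Other changed calls of the 10 genes, beside those given with each gene, were Esm1 at 1 day, which passed by DESeq2 (adjusted p = 0.0304) and without MI library A (0.0467), Esm1 within MI, which did not pass by DESeq2 (0.0581) or with the legacy option (0.0695), and Apln within MI, which passed with library size alone (0.0179), without the filter (0.039) and without MI library B of 3 days (0.0262). At 1 day Kdr (0.0767) and Angpt1 (0.0883), and at 3 days Angpt1 (0.0671), did not pass with library size alone, nor did Kdr at 1 day without both B libraries (0.0639) or Angpt1 with 1 day fitted alone (0.0777). Without MI library B of 3 days, Vegfa (0.0542), Kdr (0.0818) and Flt1 (0.0612) did not pass within MI; without MI library A of 1 day or 3 days, Angpt2 (0.211 and 0.176) and Esm1 (0.193 and 0.107) did not. Tek at 3 days passed without MI library A of 1 day (−0.65, 0.0176), and Angpt1 within MI without both B libraries of 1 day (1.25, 0.00257). In MI library B of 1 day, the shallowest, 3 counts equalled 0.369 CPM, and depth limits Esm1 most.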
